A study of Mus musculus with 6 samples.

Results

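Cornified envelope and desmosome genes were followed in the kidneys of newborn mice, taken whole at postnatal day 3. They are 10 genes, Trp63, Ivl, Sprr1a, Sfn, Dsg2, Dsc2, Jup, Pkp1, Dsp and Perp, taken by symbol from a table of 23669 gene rows, of which 19658 with FPKM and a symbol of their own were kept. FPKM are fragments scaled to transcript length and library size, so levels can be set beside each other between genes. The genes were chosen by their difference between the groups in earlier results of these data, where Ivl, Sfn and Sprr1a stood among the genes that differed most, so their values in the comparison are given as a description, with no p-value. The comparison was of 3 kidney samples that carried R26NICD2/+ and Kspcre, named NICD2 below, with 3 of wild type, all of the same age. By its name, the allele carries the Notch2 intracellular domain in Rosa26, with the other copy wild type, and Kspcre is a Cre recombinase driven by the promoter of the kidney epithelial cadherin Ksp-cadherin (Cdh16), so the kidneys also hold cells that do not express the Cre. The title of the series asks what Notch2 activation does in kidney cyst growth. Nothing in the labels tells whether each sample was a separate animal, so the spread behind each p-value may be largely technical, not between animals. Y-linked genes, given below, set only NICD2 replicate 3 apart from the other libraries.

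A desmosome is a spot-like junction between epithelial cells. Desmogleins and desmocollins, its cadherins, bind across the gap between cells, plakoglobin (Jup) and plakophilins collect on their tails, and desmoplakin (Dsp) ties the plaque to keratin filaments. The cornified envelope is the cross-linked protein shell that forms under the membrane of a keratinocyte at the end of its life, and involucrin (Ivl) and the small proline-rich proteins (Sprr) are among its building blocks. Both structures are best known in skin. Kidney tubules are simple epithelia that carry desmosomes but no cornified layer, while the urothelium lining the renal pelvis is stratified.

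The promoters of Ivl and Sprr1a are shown because these genes of one chromosome 3 cluster differed in opposite directions. RefSeq on GRCm38.p6 gives 250 bases before its transcription start, printed 5′ to 3′ on the gene's strand. Of the Ivl window, the 55 bases nearest that start lie inside the gene as the deposited table bounds it and are not printed. Capitals mark matches to the AP-1 motif (TGANTCA) and the TATA box (TATAAA).
Ivl, chr3:92573791-92573985, minus strand: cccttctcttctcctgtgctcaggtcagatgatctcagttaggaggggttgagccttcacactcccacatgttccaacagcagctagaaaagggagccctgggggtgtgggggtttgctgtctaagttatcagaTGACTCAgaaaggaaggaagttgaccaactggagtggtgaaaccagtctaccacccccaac
Sprr1a, chr3:92485882-92486131, minus strand: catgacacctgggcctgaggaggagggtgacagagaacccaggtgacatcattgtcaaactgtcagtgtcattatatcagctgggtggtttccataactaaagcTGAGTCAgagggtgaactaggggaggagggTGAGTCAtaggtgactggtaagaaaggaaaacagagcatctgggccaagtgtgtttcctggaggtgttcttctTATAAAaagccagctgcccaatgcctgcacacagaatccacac
Counted back from the RefSeq start, Ivl had 1 AP-1 match, starting at -116, and a TATA box starting at -29, in the bases not printed. Sprr1a had AP-1 matches starting at -146 and -116 and a TATA box starting at -43. Dsp, whose window lies for 212 of 250 bases inside the gene as the table bounds it, had a p53-family half-site starting at -190. It also had a match to TGGGAA, the core motif of RBPJ, the DNA-binding partner of Notch, starting at -12. Both Dsp matches lie in the bases inside the gene. Searched on both strands over 250 bases, AP-1 was found in 6.75% of 32851 RefSeq promoters, the TATA box in 12.4%, TGGGAA in 21.6% and the p53-family half-site in 7.13%. No motif overlapped another in these promoters, and AP-1 is its own reverse complement, so each match was counted on one strand. Of the 10 genes, 5 had an entry. The other entries were Sfn and Jup, whose windows held none of these letters.

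The genotype check came out as labelled. The table has a row for human Notch2, read here as the allele, though no label calls that sequence human. It held 75.4, 79.6 and 60.2 FPKM in NICD2 kidneys, against 0, 0.03 and 0.03 FPKM in wild type kidneys. Libraries held an estimated 16200000 to 16950000 fragments, as the spacing of low FPKM values gives it. Markers of proximal tubule, thick limb, distal tubule and collecting duct (Slc34a1, Umod, Slc12a3, Aqp2) were present in all 6 libraries, the lowest value being 36.1 FPKM. The Y-linked gene Ddx3y was at 0 FPKM in NICD2 replicate 3 and at 17.3 to 21.8 FPKM in the other 5 libraries. Eif2s3y, Kdm5d and Uty, also Y-linked, were at 0 FPKM there too, and at 4.56 FPKM or more in the other 5. By these genes NICD2 replicate 3 was female and from another animal than the other 5 libraries, which held male RNA. The part of sex in the comparison was not tested. Across 13765 genes that reached 1 FPKM in at least 3 libraries, limma (log2 of FPKM + 1, Benjamini-Hochberg adjusted p under 0.05, called here) found 679 genes (4.93%) higher and 531 (3.86%) lower in NICD2, together 8.79% of those tested. At an unadjusted p under 0.05, 12.4% of genes were higher and 12.6% lower. Of the 10 members, 8 passed that filter, and 6 of them were called higher and 1, Sprr1a, lower. Without NICD2 replicate 3, 8 were called. All 8 had groups that lay apart, as had 30.5% of all genes tested (15.0% with NICD2 higher and 15.5% with NICD2 lower). Since the choice of members used this contrast, these counts are no test of them and nothing is read from them. Ivl passed the filter only through the NICD2 libraries, and Trp63 and Pkp1 were below it. In whole kidneys a change in the number of cells of a type and a change in RNA per cell cannot be told apart.

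**Figure D1:**
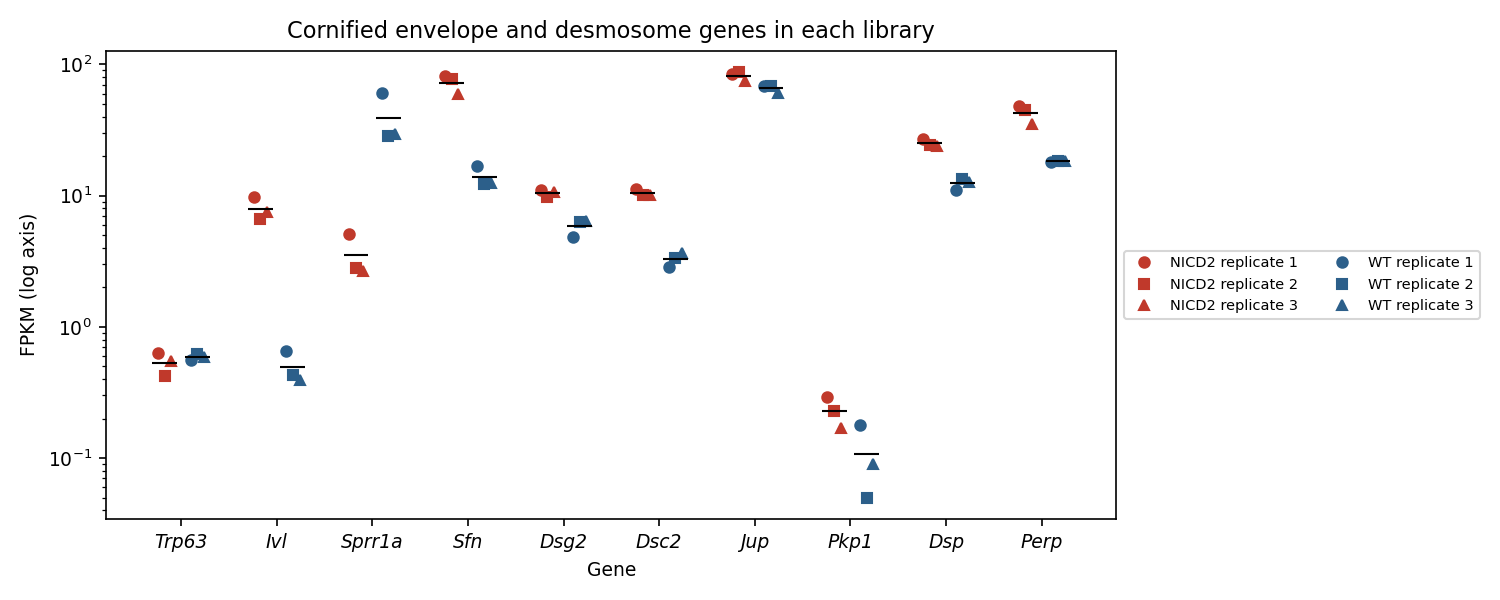
FPKM (log axis) of the 10 genes in each library, NICD2 in red on the left of each gene and wild type (WT) in blue on the right. Symbols give the replicate and black lines the group mean. Trp63 and Pkp1 overlap between groups, Sprr1a is lower in NICD2, and the other genes sit higher in all 3 NICD2 libraries.

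Trp63 encodes p63, the transcription factor that establishes stratified epithelia. It held 0.63, 0.42 and 0.55 FPKM in NICD2 kidneys, against 0.56, 0.62 and 0.59 FPKM in wild type kidneys. Both groups lay below 1 FPKM and overlapped, with about 36.7 to 55.9 fragments per library. The log2 difference was -0.05 ± 0.07 (SE) on the log2(FPKM + 1) scale, NICD2 minus wild type, a scale that understates differences of low genes. The low level of Trp63 stood beside marked differences in Ivl and Sprr1a.

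Ivl, which encodes involucrin (gene 16447, chromosome 3, 92570899 to 92573790 on GRCm38), held 9.79, 6.63 and 7.46 FPKM in NICD2 kidneys, against 0.66, 0.43 and 0.39 FPKM in wild type kidneys. The lowest NICD2 library lay far above the highest wild type library. Group means were 7.96 ± 1.64 FPKM in NICD2 and 0.493 ± 0.146 FPKM in wild type (SD, n = 3 each), a ratio of 16.1, and the log2 difference was 2.57 ± 0.14. The wild type level rested on about 12.4 to 20 fragments per library.

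Sprr1a, a small proline-rich envelope protein (gene 20753, chromosome 3, 92483954 to 92485881), held 5.14, 2.82 and 2.68 FPKM in NICD2 kidneys, against 60.4, 28.2 and 29.6 FPKM in wild type kidneys. All NICD2 values were lower, and replicate 1 was the highest library of its own group in both genotypes. The means were 3.55 ± 1.38 FPKM in NICD2 and 39.4 ± 18.2 FPKM in wild type, and the log2 difference was -3.10 ± 0.29. Without wild type replicate 1 it was -2.76. In the table, 85017 bases separate Sprr1a from Ivl, and the 1 row between them, Sprr4, has no FPKM. The ratio of Ivl to Sprr1a was 1.91, 2.35 and 2.78 in NICD2 libraries, against 0.0109, 0.0152 and 0.0132 in wild type libraries. The sources used here do not give how reads shared between close Sprr copies were divided.

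Around them the cluster was little expressed. Within 500000 bases on either side of this gene pair, 18 rows held FPKM, and only Sprr1a and Ivl passed the filter. Loricrin (Lor), the main protein of the envelope in skin, was at 0.35, 0.32 and 0.21 FPKM in NICD2 kidneys, against 0.67, 0.18 and 0.21 FPKM in wild type kidneys. The 4 late cornified envelope (Lce) rows with FPKM summed to at most 0.62 FPKM in any library. The 5 Sprr2 rows summed to 0.4, 0.64 and 0.26 FPKM in NICD2 kidneys, against 6.08, 2.31 and 4.33 FPKM in wild type kidneys. The Sprr2a copies among them are nearly identical and the other rows are of the same family, so single rows are uncertain. Sprr2a1, for instance, was at 0.02, 0.01 and 0.01 FPKM in NICD2 kidneys and 3.67, 0.63 and 0 FPKM in wild type kidneys.

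Of 53 other cornified envelope genes listed, 25 had FPKM and 5 could be tested. Of the 5, 1 was called higher and 1 lower, beside 4.93% and 3.86% of all genes. The median log2 difference of the 5 was 0.19, beside -0.01 over all genes tested. Periplakin (Ppl), a plakin that anchors the envelope to desmosomes and keratin, rose, at 7.99, 5.49 and 6.34 FPKM in NICD2 kidneys and 3.66, 3.78 and 3.14 FPKM in wild type kidneys (limma log2 difference 0.74 ± 0.13, adjusted p = 0.00871). Envoplakin (Evpl), its partner, was not called, at 5.28 ± 0.365 FPKM in NICD2 and 5.93 ± 0.235 FPKM in wild type (limma adjusted p = 0.295). Trichohyalin (Tchh), a keratin-binding protein of the hair follicle's inner root sheath, fell to 3.60 ± 0.51 FPKM in NICD2, against 6.64 ± 0.695 FPKM in wild type (limma adjusted p = 0.00488). Transglutaminase 1 (Tgm1), the enzyme that cross-links involucrin in skin, and sciellin (Scel) were not called, with log2 differences of 0.25 ± 0.09 and 0.19 ± 0.09 (limma adjusted p = 0.126 and 0.237). Tgm1 was at 4.47 to 5.55 FPKM in NICD2 libraries and 3.86 to 4.21 FPKM in wild type libraries (limma unadjusted p = 0.0229). Its groups did not overlap, as was so for 30.5% of all genes tested.

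Keratins of stratified epithelium gave a similar picture of few expressed genes. Of 9 listed, 2 could be tested, and Krt17, a keratin of appendages and of stressed epidermis, was called higher, at 2.12, 3.11 and 1.79 FPKM in NICD2 kidneys, against 0.04, 0 and 0.04 FPKM in wild type kidneys (limma log2 difference 1.68 ± 0.16, adjusted p = 3.95e-04). It passed the filter only through the NICD2 libraries, so a difference was built into its being tested. Krt10, a keratin of differentiated keratinocytes, was not called, at 1.72 ± 0.193 FPKM in NICD2 and 1.81 ± 0.265 FPKM in wild type (limma adjusted p = 0.846). Krt14, the basal-layer keratin, did not pass the filter, with 0.07, 0.12 and 0.09 FPKM in NICD2 kidneys and 1.12, 0.5 and 0.61 FPKM in wild type kidneys. Of 5 squamous markers listed, Krt1, Krt14, Krt15 and Lor were below 1 FPKM in every NICD2 library. Krt10 was at 1.5 to 1.86 FPKM there. Krt5, a keratin counted below with urothelial markers, was at 2.92 to 5.17 FPKM there, against 0.98 to 3.03 FPKM in wild type.

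Sfn encodes 14-3-3 sigma, the family member typical of stratified epithelia (gene 55948, chromosome 4, 133600556 to 133602168). It held 82.1, 77 and 59.2 FPKM in NICD2 kidneys, against 16.7, 12.2 and 12.4 FPKM in wild type kidneys. Every NICD2 library exceeded every wild type library by a wide margin. The ratio of means was 5.28 and the log2 difference 2.32 ± 0.15. None of its 6 paralogs, Ywhab, Ywhae, Ywhag, Ywhah, Ywhaq and Ywhaz, was called by limma, none had an unadjusted p under 0.05, and their log2 differences were between -0.02 and 0.11. Sfn made up 7.20 ± 0.876% of the summed FPKM of the family in NICD2 and 1.49 ± 0.259% in wild type.

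Dsg2, the desmoglein of simple epithelia and heart, held 11.1, 9.78 and 10.7 FPKM in NICD2 kidneys, against 4.88, 6.26 and 6.46 FPKM in wild type kidneys. Dsc2, the desmocollin with which it is usually paired, held 11.3, 10.1 and 10.1 FPKM in NICD2 kidneys, against 2.85, 3.35 and 3.68 FPKM in wild type kidneys. Neither gene overlapped between groups. Their log2 differences were 0.75 ± 0.10 for Dsg2 and 1.42 ± 0.09 for Dsc2. The ratio of Dsc2 to Dsg2 was therefore 1.02, 1.03 and 0.943 in NICD2 libraries, close to even, against 0.584, 0.535 and 0.57 in wild type libraries. The desmosomal cadherins of skin stayed near 0, the highest single value among Dsg1a, Dsg1b, Dsg1c and Dsg3 being 0.03 FPKM and that among Dsc1 and Dsc3 being 0.27 FPKM.

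In the plaque, Dsp (gene 109620, chromosome 13, 38151082 to 38198577), the plakin that binds keratin, held 26.95, 24.4 and 24 FPKM in NICD2 kidneys, against 11.1, 13.3 and 12.7 FPKM in wild type kidneys. Its means stood in a ratio of 2.03, with a log2 difference of 0.97 ± 0.08. Jup, plakoglobin, the armadillo protein shared by desmosomes and adherens junctions, held 84, 87.5 and 74.5 FPKM in NICD2 kidneys, against 69, 68.8 and 61 FPKM in wild type kidneys. The Jup groups did not overlap, but the gap was narrow and the ratio of means only 1.24 (log2 difference 0.30 ± 0.08). The FPKM ratio of Dsp to Jup was 0.307 ± 0.0246 in NICD2 and 0.188 ± 0.0239 in wild type (SD, n = 3 each).

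Pkp1, the plakophilin of stratified epithelia, was the lowest member, at 0.29, 0.23 and 0.17 FPKM in NICD2 kidneys, against 0.18, 0.05 and 0.09 FPKM in wild type kidneys. The groups overlapped, and the values rested on about 3.8 to 22.4 fragments per library. The log2 difference was 0.15 ± 0.06, and 0.71 with a pseudocount of 0.1. The plakophilins of simple and mixed epithelia were expressed instead. Pkp2 rose, at 12.4, 12.2 and 11.6 FPKM in NICD2 kidneys and 8.57, 9.47 and 9.28 FPKM in wild type kidneys (limma log2 difference 0.37 ± 0.07, adjusted p = 0.0132), and lost its call without NICD2 replicate 1 (adjusted p = 0.0532). Pkp4, an armadillo protein found at several kinds of junction, rose to 34.8 ± 0.135 FPKM in NICD2, against 27.7 ± 0.223 FPKM in wild type (limma adjusted p = 0.00847). Pkp3 and Kazn (kazrin) were not called, with limma adjusted p of 0.182 and 0.111. Of 12 other desmosome genes, 11 had FPKM and 4 could be tested. Of these, 2 were called higher and none lower by limma, beside 4.93% and 3.86% of all genes. All 4 had an unadjusted p under 0.05 with the higher level in NICD2, beside 12.4% of all genes, and their median log2 difference was 0.29.

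Perp, a tetraspan membrane protein that p63 and p53 are known to induce and that desmosomes need in skin (gene 64058, chromosome 10, 18845071 to 18857073), held 48, 44.6 and 35.2 FPKM in NICD2 kidneys, against 18.1, 18.2 and 18.4 FPKM in wild type kidneys. The wild type values lay within a narrow band that all NICD2 libraries exceeded, with a ratio of means of 2.34 and a log2 difference of 1.17 ± 0.11. Sfn is another known p53 target. Of 23 other p53 targets tested, 1 was called higher and 2 lower by limma, beside 4.93% and 3.86% of all genes, with a median log2 difference of -0.02. Pmaip1, which encodes the death-promoting protein Noxa, was at 5.14 ± 1.02 FPKM in NICD2 and 2.78 ± 0.219 FPKM in wild type (limma adjusted p = 0.011), a call that needed wild type replicate 2 (adjusted p = 0.0527 without it). Gadd45a and Dcxr fell (limma adjusted p = 0.014 and 0.0393). Gadd45a lost its call without NICD2 replicate 1 or wild type replicate 3, with adjusted p up to 0.0526, and Dcxr when any of 5 libraries was dropped, up to 0.12. Cdkn1a, the cell cycle inhibitor p21, and Mdm2, the feedback inhibitor of p53, were not called, at 26.5 ± 3.55 and 19.8 ± 0.0173 FPKM in NICD2, against 31.8 ± 0.982 and 19.6 ± 1.17 FPKM in wild type (limma adjusted p = 0.128 and 0.904).

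**Figure D2:**
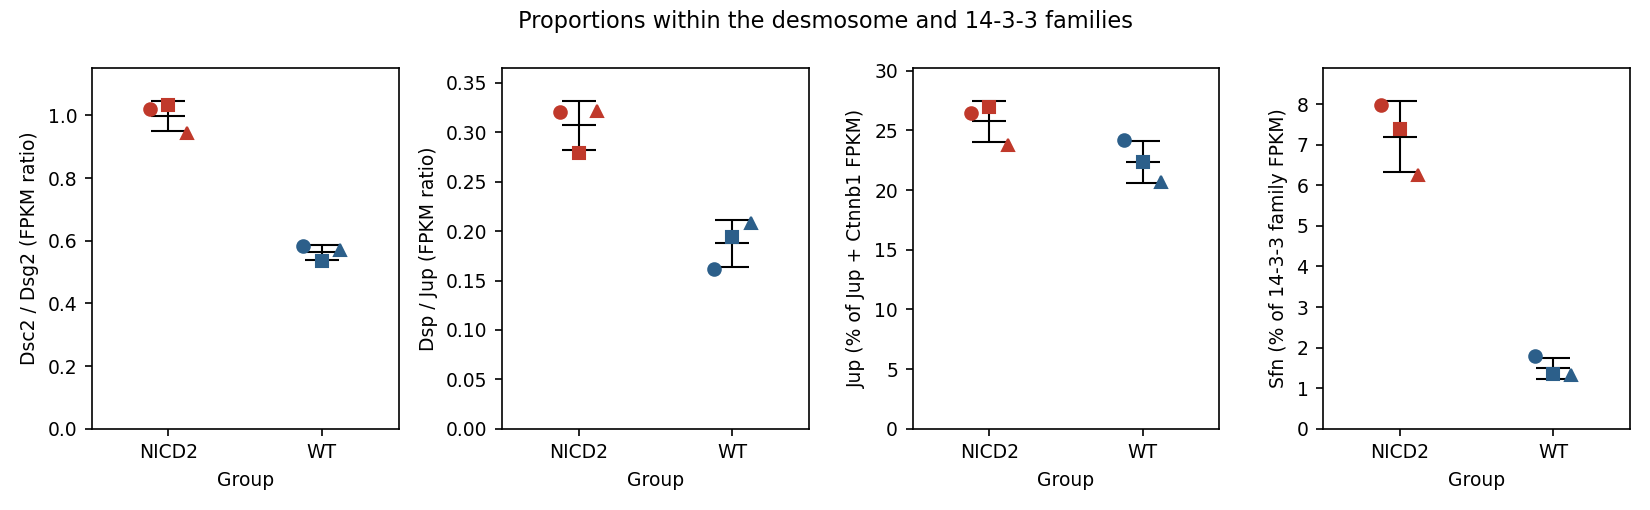
FPKM ratios of Dsc2 to Dsg2 and Dsp to Jup, and the FPKM share in percent of Jup in Jup plus Ctnnb1 and of Sfn in the 14-3-3 family, in each library of NICD2 (red, left) and wild type (WT, blue, right). Symbols give replicates as circle, square and triangle for 1, 2 and 3, and black bars the mean and SD. The Jup share overlaps between groups, while the other proportions do not.

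Adherens junctions, which share Jup with desmosomes, were measured alongside. Of 13 adherens junction genes tested, 3 were called higher and none lower by limma, beside 4.93% and 3.86% of all genes. At an unadjusted p under 0.05, 5 were higher and 0 lower, beside 12.4% and 12.6% of all genes. Their median log2 difference was 0.04. Nectin4, an adhesion molecule of the epidermis, was at 11.1, 8.7 and 8.54 FPKM in NICD2 kidneys and 2.26, 1.81 and 2.01 FPKM in wild type kidneys (limma log2 difference 1.78 ± 0.11, adjusted p = 4.69e-05). Cdh1, E-cadherin, was at 95 ± 9.45 FPKM in NICD2 and 59.4 ± 6.78 FPKM in wild type (limma adjusted p = 0.00497). Ctnnd2, delta-catenin, rose too (limma adjusted p = 0.015). It passed the filter only through the NICD2 libraries, so a difference was built into its being tested. Its call was lost without NICD2 replicate 2 or wild type replicate 3 (limma adjusted p up to 0.0541). The catenins Ctnnb1, Ctnna1 and Ctnnd1 were not called, with log2 differences of 0.04, -0.01 and -0.04 (limma adjusted p = 0.75, 0.91 and 0.74). Jup made up 25.7 ± 1.72% of Jup plus Ctnnb1 in NICD2 and 22.4 ± 1.75% in wild type, and those shares overlapped between groups.

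Among the tested transcription factors of epidermal differentiation, Grhl3, a grainyhead factor needed for the skin barrier, had the largest log2 difference. It held 8.37, 5.77 and 5.25 FPKM in NICD2 kidneys, against 0.98, 0.8 and 0.75 FPKM in wild type kidneys. The limma log2 difference was 2.0 ± 0.15 (adjusted p = 1.46e-04). Grhl3 passed the filter only through the NICD2 libraries, so a difference was built into its being tested. Tfap2c, an AP-2 factor below the filter, held 0.4, 0.31 and 0.45 FPKM in NICD2 kidneys, against 0.05, 0.02 and 0.02 FPKM in wild type kidneys. Grhl1, a relative of Grhl3 that regulates desmosomal cadherins in skin, was at 4.2 ± 0.489 FPKM in NICD2 and 1.88 ± 0.23 FPKM in wild type (limma adjusted p = 0.002). Ehf, an epithelial ETS factor, was at 24.8 ± 4.84 FPKM in NICD2 and 10.2 ± 0.543 FPKM in wild type (limma adjusted p = 6.44e-04). Grhl2 and Elf3 also rose (limma adjusted p = 0.0447 and 0.0448), but for each the call went when any of 5 libraries was dropped (adjusted p up to 0.144 and 0.142). Maf, which acts in late keratinocyte differentiation, fell, at 36.1 ± 4.08 FPKM in NICD2, against 50.1 ± 1.46 FPKM in wild type (limma adjusted p = 0.0111). Tfap2b and Ovol1 fell as well (limma adjusted p = 0.0144 and 0.0473). Tfap2b was not called when any of 3 libraries was dropped (adjusted p up to 0.0654), nor Ovol1 when any of the 6 was (up to 0.164). Klf4, Gata3 and Tfap2a were not called. In all, 5 of 19 tested factors were called higher and 4 lower by limma, beside 4.93% and 3.86% of all genes, with a median log2 difference of 0.19. At an unadjusted p under 0.05, 8 were higher and 5 lower, beside 12.4% and 12.6% of all genes. Without NICD2 replicate 1 or any single wild type replicate, 3 factors were called higher, and without NICD2 replicate 1, wild type replicate 2 or wild type replicate 3, 2 were called lower.

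**Figure D3:**
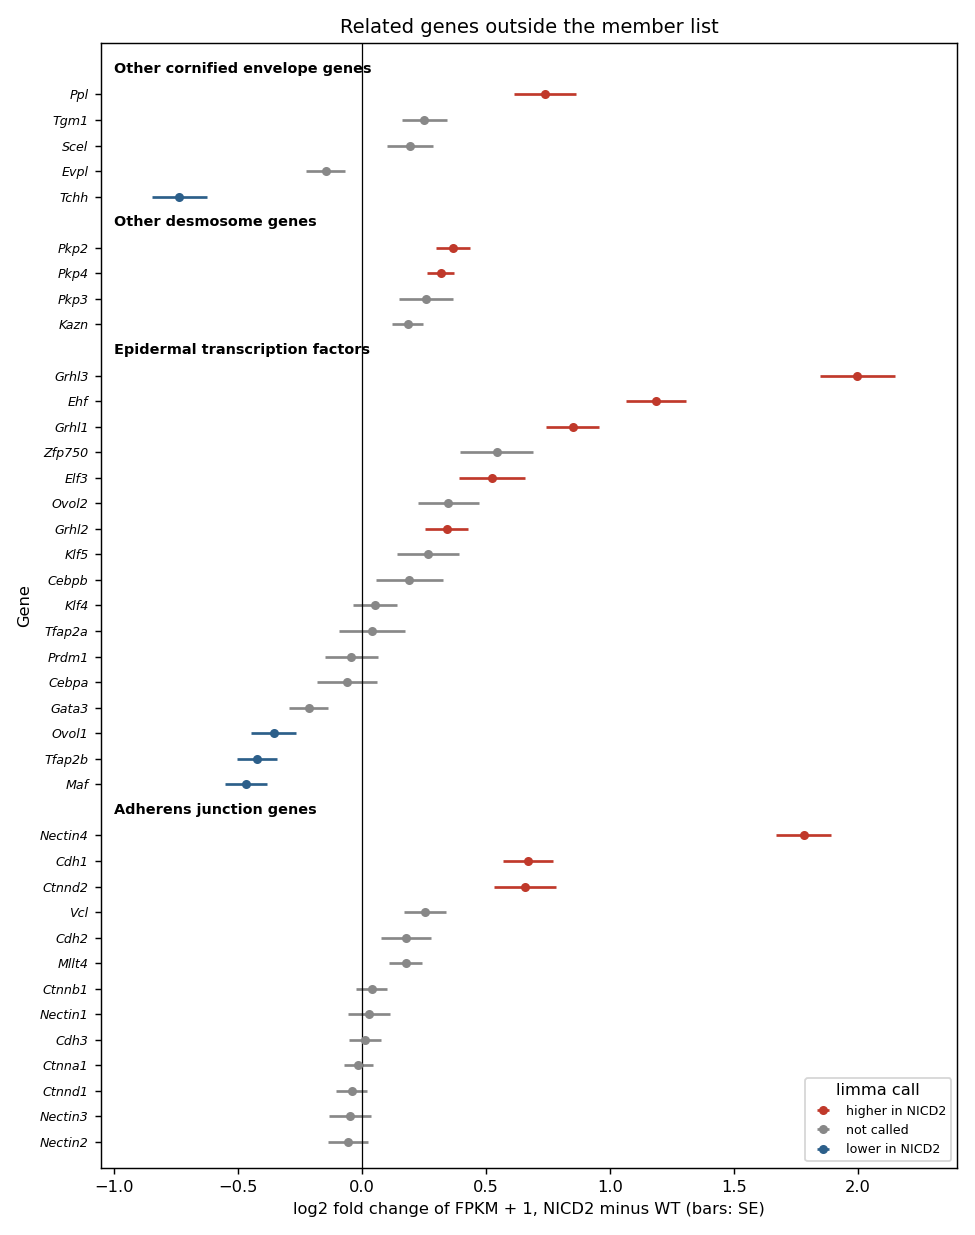
Log2 difference of FPKM + 1, NICD2 minus wild type (WT), with SE bars, for tested genes of 4 related lists, not all of which are drawn. Red genes were called higher in NICD2, blue lower, and grey were not called by limma. Grhl3 and Nectin4 lie farthest to the right, and Tchh farthest to the left.

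Sprr1a is also known in urothelium, so urothelial markers were set beside it. Upk1b, a uroplakin, held 0.21, 0.26 and 0.83 FPKM in NICD2 kidneys, against 15.5, 8.66 and 8.45 FPKM in wild type kidneys (limma adjusted p = 1.57e-04). Psca held 0.08, 0.32 and 0.16 FPKM in NICD2 kidneys, against 28.1, 12.3 and 16.4 FPKM in wild type kidneys (limma adjusted p = 4.30e-05). Upk3a fell to 3.15 ± 0.395 FPKM in NICD2, against 10.2 ± 5.53 FPKM in wild type (limma adjusted p = 0.0209), and lost its call without NICD2 replicate 1 or 2 (adjusted p up to 0.0644). Gsdmc2 fell as well (limma adjusted p = 0.00248). Upk1b, Psca and Gsdmc2 passed the filter only through the wild type libraries, so a difference was built into their being tested. Upk1a, another uroplakin, rose instead, at 54.4, 28.8 and 29.8 FPKM in NICD2 kidneys and 20.1, 10.5 and 12.6 FPKM in wild type kidneys (limma adjusted p = 0.0211), but not when wild type replicate 2 or 3 was dropped (adjusted p up to 0.0834). Upk2, Upk3b, Krt7, Snx31 and the basal-cell keratin Krt5 were not called, though Upk2 was called lower without wild type replicate 1 (adjusted p = 0.0389) and Upk3b without wild type replicate 3 (0.0253). Krt5 held 5.17, 2.92 and 4.41 FPKM in NICD2 kidneys, against 3.03, 0.98 and 1.0 FPKM in wild type kidneys (limma adjusted p = 0.0615), and was called higher without wild type replicate 1 (adjusted p = 0.00751) or with the replicate number as a block (0.0175). Among the 10 markers tested, 4 were called lower, Upk1b, Psca and Gsdmc2 among them, and 1 higher, beside 3.86% and 4.93% of all genes. The median log2 difference was -0.79, and the summed level of all 14 was 117 to 147 FPKM in NICD2 libraries and 132 to 206 FPKM in wild type libraries. Krt7, which was not called, was the largest part of that sum, at 69.3 to 83.3 FPKM in NICD2 libraries and 72.9 to 95.3 FPKM in wild type libraries. Of the 14, Krt13 was at 0 in NICD2 replicates 2 and 3 and at most 0.11 FPKM elsewhere, and no other was at 0 in any library. The part that the share of urothelium has in the Sprr1a values was not tested.

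**Figure D4:**
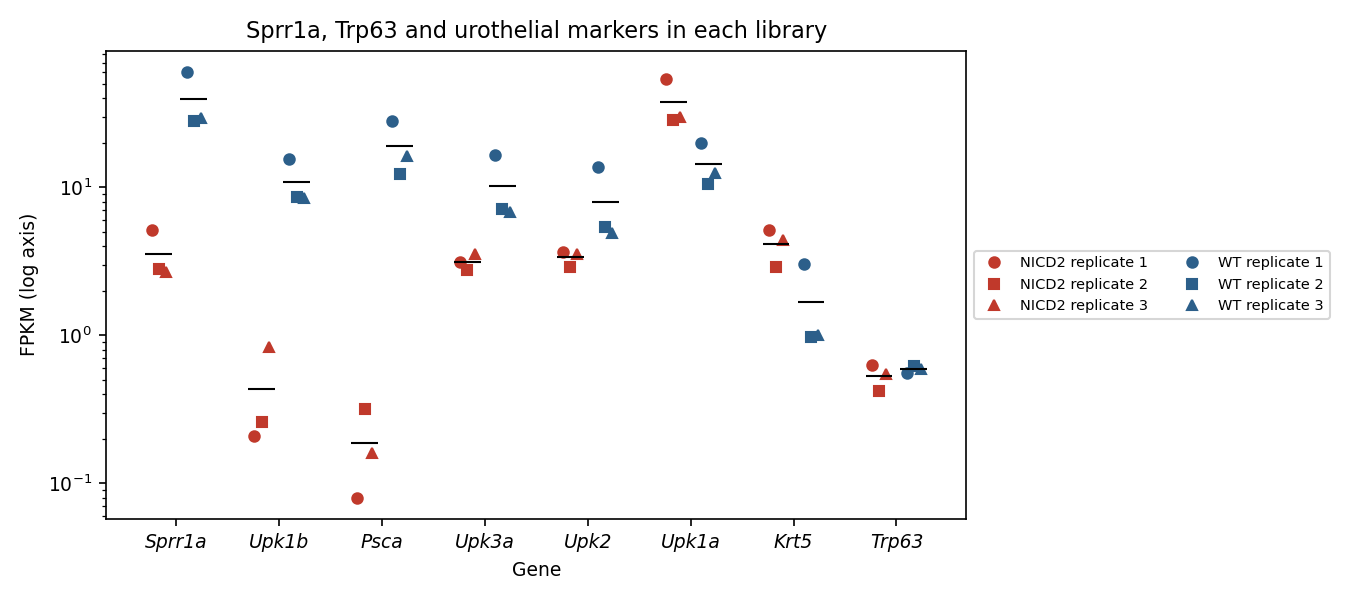
FPKM (log axis) of Sprr1a, Trp63 and 6 urothelial markers in each library, NICD2 in red on the left of each gene and wild type (WT) in blue on the right, with symbols for replicates and black lines for group means. Wild type replicate 1 is the highest wild type library for every gene shown except Trp63. Upk1a and Krt5 have higher means in NICD2, while Sprr1a, Upk1b, Psca, Upk3a and Upk2 are lower.

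Wild type replicate 1 was the highest wild type library for 14 of 14 urothelial markers, as it was for Sprr1a, Ivl, Sfn, Jup and Pkp1, while 40.2% of all tested genes had their highest wild type value there. Its Sprr1a level was 2.09 times the mean of the other 2 wild type libraries, beside 1.81 times for Upk1b, 2.37 times for Upk3a, 2.66 times for Upk2 and 1.96 times for Psca. With that library left out, Sprr1a was 8.15 times and Upk1b 19.7 times higher in wild type than in NICD2, against 11.1 and 25.1 times with it. In NICD2, replicate 1 was the highest library for 9 of the 10 members, all but Jup, and for 9 of the 14 urothelial markers. Of all tested genes, 31.9% had their highest NICD2 value there.

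The genes whose profile over the 6 libraries was most like that of each envelope gene were found by the root mean square distance of log2(FPKM + 1), taken from the wild type mean, a measure that mostly ranks genes by how close their group difference is. For Ivl these were Efna3, Hp, Sfn, Nrarp and Clca3a2, at distances of 0.13, 0.23, 0.25, 0.25 and 0.29. For Sprr1a they were Upk1b, Aqp6, Slc4a9, Slc26a4 and Atp6v1g3, at 0.40, 0.42, 0.49, 0.57 and 0.64. Among these, Upk1b is a listed urothelial marker, while Slc4a9, Slc26a4 and Atp6v1g3 are listed collecting duct markers. Sfn was the only member among the 5 genes nearest to Ivl, and no member was among the 5 nearest to Sprr1a.

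Genes of injured tubule and of the collecting duct moved in the same kidneys. Of 11 injury genes tested, 5 were called higher and none lower by limma, beside 4.93% and 3.86% of all genes. At an unadjusted p under 0.05, 7 were higher and 1 lower, beside 12.4% and 12.6% of all genes. Lcn2, the iron-carrier binding protein NGAL, was at 33.4, 24.4 and 13 FPKM in NICD2 kidneys and 6.69, 6.06 and 5.28 FPKM in wild type kidneys (limma adjusted p = 0.0066), and the matrix protein gene Spp1 at 734 ± 176 FPKM in NICD2 and 311 ± 13.2 FPKM in wild type (limma adjusted p = 0.00166). Clu, Cd44 and Anxa2 also rose (limma adjusted p = 0.0234, 0.0268 and 0.0367), and the count was 2 without NICD2 replicate 1 or 2 or wild type replicate 2 or 3. Summed over 12 injury genes, levels were 1154 to 1536 FPKM in NICD2 libraries and 712 to 751 FPKM in wild type libraries. Spp1 was the largest part of that sum, at 597 to 932 FPKM in NICD2 libraries and 298 to 324 FPKM in wild type libraries. Of 13 collecting duct markers tested, 9 were called lower and 1, Scnn1g, higher by limma, beside 3.86% and 4.93% of all genes. Among the 9, Slc26a4 passed the filter only through the wild type libraries, so a difference was built into its being tested. The 13 collecting duct markers summed to 193 to 225 FPKM in NICD2 libraries and 428 to 436 FPKM in wild type libraries. Their part in the values of the 10 genes was not tested.

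Ordered by level per transcript length, Jup was the highest member in both groups. In NICD2 the order of means was Jup, Sfn, Perp, Dsp, Dsg2, Dsc2, Ivl, Sprr1a, Trp63 and Pkp1, where the ranges of Jup and Sfn, of Dsg2 and Dsc2, and of Ivl and Dsg2 overlapped. In wild type it was Jup, Sprr1a, Perp, Sfn, Dsp, Dsg2, Dsc2, Trp63, Ivl and Pkp1, where the ranges of Sfn and Dsp and of Trp63 and Ivl overlapped. Sprr1a thus stood next to Jup in wild type kidneys and between Ivl and Trp63 in NICD2 kidneys.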

How the data were processed

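Per the labels' protocols, RNA of 6 frozen kidney samples was taken up in Trizol and made into libraries by a TruSeq kit. The FPKM per gene and sample were computed by the authors and deposited in one table, which also gives the longest transcript of each gene, another deposited value. Per the submitters' processing notes, Bowtie 0.12.2 and build mm8 were used, while the table's chromosome accessions and positions are those of GRCm38. The sources used here do not give the program that made the FPKM, the strand handling or the division of shared reads. Of 23669 rows, 4010 without FPKM were left out, and 27 columns comparing pairs of samples were not used.

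Depth was estimated from genes with 1 transcript of 500 to 2500 bases, as the library size that puts low values on whole fragments after 120 bases were taken off each length. With it 77.1% to 80.1% of low values came within 0.15 of whole fragments, against 30.0% by chance. Fragment numbers given for members rest on it and on the longest transcript, and intervals were not computed.

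NICD2 was compared with wild type by limma 3.58.1 (R 4.3.3) on log2(FPKM + 1), with a mean-variance trend and no covariate, two-sided, for genes of at least 1 FPKM in at least 3 libraries. Differences of Trp63 and Pkp1 come from the same fit without that filter. The fit was tested on simulated data. Python 3.11.15 with pandas 2.3.3 and matplotlib 3.10.9 was used for tables and figures. Groups and replicate numbers came from the labels. Over all genes tested, samples of the same number did not deviate together, so they were not paired. Members, lists and tests were chosen with earlier results of these data known. Named genes are the members and, of each list, called genes up to 6 and uncalled genes of highest level up to 4. Any other named gene (such as Tgm1, Krt5 and Krt14) was chosen after its values were seen. A few listed genes are counted with their list but not reported here by name. The list of kidney markers served to check the tissue. As alternatives, each library was left out in turn, the pseudocount was set to 0.1, low genes were kept or cut more strictly (mean of at least 2 FPKM), libraries were rescaled by median ratios, and the replicate number was a block.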

Additional observations from a re-analysis of the deposited data

How the results depend on the processing

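Groups of 3 limit the precision, and FPKM near 1 rest on few fragments. Leaving out a library gave 388 to 589 genes higher and 236 to 411 lower, against 679 and 531 with all 6. Over those fits, 1 to 2 other desmosome genes, 3 to 5 epidermal transcription factors, 0 to 1 p53 targets, 0 to 2 urothelial markers and 2 to 5 injury genes were higher, and 2 to 3 epidermal factors and 0 to 2 p53 targets were lower. With a pseudocount of 0.1, the log2 difference was -0.14 for Trp63, 3.77 for Ivl, 1.65 for Dsc2 and 0.71 for Pkp1, since less is added to low values. With no filter on low values, 1 p53 target was lower, no urothelial marker (0) was higher, 1 epidermal keratin was lower and 2 injury genes were higher, the cause of which was not tested. The stricter filter took out Krt17, leaving 0 epidermal keratins higher. With the replicate number as a block, 2 urothelial markers were higher, the second being Krt5 (adjusted p = 0.0175). The block rests on numbers alone: deviations of same-numbered samples correlated at -0.03, 0.06 and -0.05, and it ended the calls of Grhl2, Ovol1, Dcxr and Anxa2. The log2 differences of the members kept their sign in every alternative run that held them. Trp63 and Pkp1 were not in the run with the stricter filter, and Trp63 was at -0.0003 without NICD2 replicate 2, which is no difference. The log2 differences of Dsg2, Dsp, Jup, Perp, Sfn and Sprr1a moved by less than the spread between replicates.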
